A study of Homo sapiens with 2 samples.

Results

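Cohesin is a ring of proteins that holds sister chromatids together and extrudes loops of chromatin. The 8 genes described here encode the core of that ring and its alternative subunits, and they were SMC1A, SMC1B, SMC3, RAD21, STAG1, STAG2, STAG3 and REC8. They were taken by symbol from a deposited table of 62702 gene rows, in which each had 1 row. They were chosen by their place in the complex and not by a measured value, though earlier results of these data were known. RNA was measured in 2 libraries of K562, an established line from a human chronic myeloid leukemia that keeps traits of red cell precursors. One library came from cells with a control guide RNA (sgRNA_Control) and the other from cells with a guide against SMC1A (sgRNA_SMC1A). Both groups carried dCas9-KRAB, a nuclease-dead Cas9 joined to a transcriptional repressor domain that lowers transcription at the promoter a guide names. The titles of both libraries call the cells WT and give the genotype as E50_dCas9-KRAB. The labels do not explain E50, and they do not say whether the cells are 1 clone. In both groups the guides arrived by lentivirus, puromycin at 1 µg/ml was present from day 2 to day 6, and the cells brightest for BFP, the blue fluorescent protein on the guide vector, were sorted for RNA.

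In the mitotic ring, SMC1A and SMC3 pair at their hinge domains, and the kleisin RAD21 closes the ring by bridging their ATPase heads. One STAG protein, STAG1 or STAG2, binds the kleisin, and the choice between them gives somatic cells 2 forms of cohesin. In germ cells at meiosis, SMC1B can replace SMC1A, REC8 or RAD21L1 can replace RAD21, and STAG3 can replace STAG1 and STAG2. NIPBL and MAU2 load the ring, PDS5 proteins and WAPL release it, ESCO enzymes acetylate SMC3, and CTCF stops loop extrusion.

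The control library held 18349209 estimated counts in 19468 detected genes and the SMC1A library 16864207 in 20786, with 9.81% and 10.6% of counts from mitochondrial genes. Levels are counts per 1000000 counts (CPM) of a library size scaled by TMM, a trimmed mean of the ratios of all genes. A log2 ratio is the SMC1A guide over the control guide. Each guide had 1 library, so no difference has a replicate check, no p-value is given, and each interval is an exact 95% interval for counting error only. Genes with at least 100 counts over both libraries were called when they differed by at least 2-fold. All 10 markers of K562 cells had at least 441 counts in each library, with summed levels of 14561 and 13397 CPM for the control and SMC1A guides. Within that sum 4 of the 10 were past 2-fold downward and 0 upward, against 2.32% and 5.11% of all genes with at least 100 counts. These were the globin genes HBG2 (3713 and 1159 CPM), HBG1 (1623 and 575 CPM) and HBZ (879 and 298 CPM) and the transferrin receptor gene TFRC (918 and 347 CPM), while the globin gene HBE1 was at 6755 and 10348 CPM. Of the markers of other cells, CD2 (T cell), MS4A1 (B cell), LUM (fibroblast) and KRT5 (epithelial) had 0 counts in both libraries. EPCAM (2978 and 2019 counts) and KRT19 (2418 and 2205), both epithelial, passed 100 counts. So did CD3D (255 and 324) and CD3G (55 and 132) of T cells and LYZ (319 and 428) of monocytes. VCAN (monocyte, 8 and 101) and the fibroblast genes COL1A1 (64 and 233) and COL1A2 (70 and 42) did too. Of these markers, CD3G, VCAN and COL1A1 were past 2-fold upward, against 5.11% of all genes with at least 100 counts, and no other was past 2-fold. The summed levels were 18.2 and 27.0 CPM for 4 T cell markers, 0.969 and 0.680 for 4 B cell markers, 18.8 and 30.2 for 4 monocyte markers, 7.75 and 15.9 for 4 fibroblast markers, and 307.7 and 239.6 for 4 epithelial markers. The part of these levels in the results was not tested.

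SMC1A, the targeted gene, was far lower in the library with its guide, the partners SMC3 and RAD21 were near their control level, and STAG1 was more than 2-fold higher while STAG2 was not. Of the 8 genes, 5 had at least 100 counts. Of these, 1 was at least 2-fold higher (STAG1) and 1 at least 2-fold lower (SMC1A). Among the 11321 genes of the whole table that reached 100 counts, the shares past 2-fold were 5.11% upward and 2.32% downward. A minimum of 20 counts let in 7 of the 8 genes, of which 2 were past 2-fold upward (STAG1 and STAG3) and 1 downward (SMC1A), against 9.55% and 3.63% of all genes. STAG3 fell short of 2-fold, at a log2 ratio of 0.90, with the trend of ratios with expression level removed. A minimum of 500 counts kept the 5 mitotic genes, with 1 upward and 1 downward, against 2.36% and 1.66%. The remaining 3 genes, all with germline roles, were STAG3 with 76 counts, REC8 with 36 and SMC1B with 0, too few to be called.

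**Figure D1:**
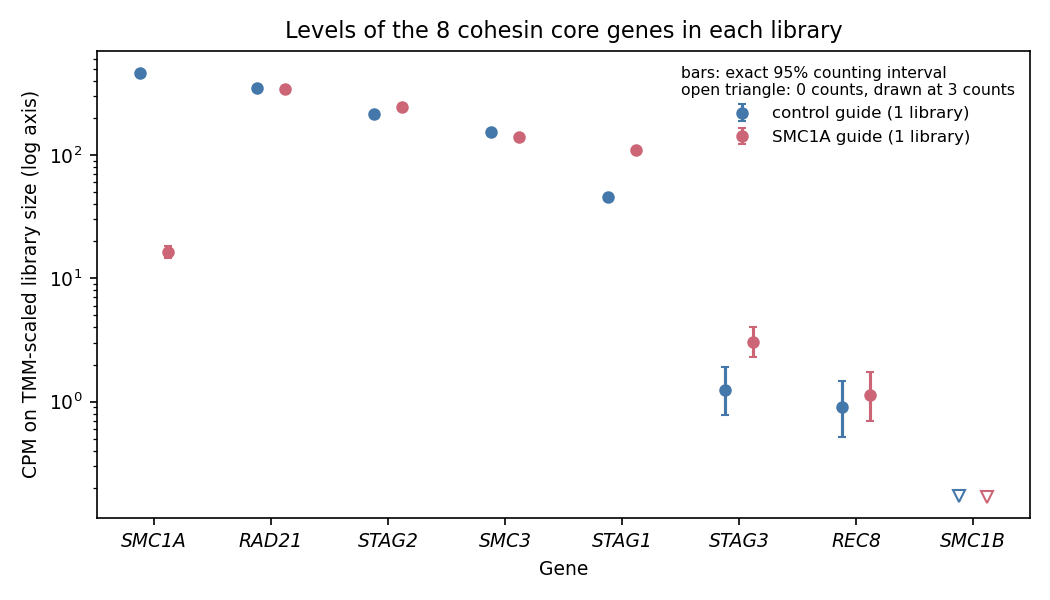
Level of each of the 8 genes (x axis) in CPM on a log axis (y axis), with 1 point per library and bars for the exact 95% counting interval. SMC1A was at 460.4 CPM under the control guide and 16.3 under the SMC1A guide, STAG1 at 45.4 and 109, and SMC1B, at 0 counts in both, is drawn as open triangles at the level of 3 counts.

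SMC1A encodes one of the ATPase arms of the ring (ENSG00000072501.19, chromosome X, 53374149 to 53422728, minus strand, GRCh38). It had 8077 counts under the control guide and 288 under the SMC1A guide. These are 460.4 CPM (interval 450.4 to 470.5) and 16.3 CPM (14.5 to 18.3), so the intervals of the libraries lay far apart. The level left was 3.55% of the control (3.14 to 3.99), which is 28.2-fold lower (25.1 to 31.8). Its log2 ratio was -4.81 (-4.99 to -4.65), and 2 of the 11321 genes tested had a lower one. Its whole interval lay past 2-fold, as it did downward for 1.26% of all genes tested. The guide was directed at this gene, so the value checks the library label. In a bulk library, a few cells with full SMC1A and all cells with little SMC1A RNA cannot be told apart, so the share left is an average over the sorted cells.

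Ratios of counts inside one library need no scaling between libraries. Under the control guide there were 2.98 SMC1A counts for each SMC3 count (2.85 to 3.11), and under the SMC1A guide 0.117 (0.103 to 0.132). Per RAD21 count, there were 1.32 SMC1A counts (1.27 to 1.36) and 0.0477 (0.0422 to 0.0537). SMC1A thus went from more counts than either partner to a small fraction of each.

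The bases between the RefSeq start of SMC1A and that of RIBC1, its neighbour on the opposite strand, are shown because dCas9-KRAB acts at promoters. These RefSeq starts face away from each other over a short stretch. The same is shown for SMC1B, which has the related gene RIBC2 in the same divergent arrangement. Both sequences are from RefSeq (GRCh38.p14), written 5′ to 3′ on the minus strand, that of the SMC1 gene. Capitals mark TCCCGC, a motif of E2F-type sites, searched on both strands.
SMC1A to RIBC1, chrX:53422729-53422872: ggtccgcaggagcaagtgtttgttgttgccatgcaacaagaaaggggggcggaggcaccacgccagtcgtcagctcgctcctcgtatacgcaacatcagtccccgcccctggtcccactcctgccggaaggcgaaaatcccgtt
SMC1B to RIBC2, chr22:45413600-45413692: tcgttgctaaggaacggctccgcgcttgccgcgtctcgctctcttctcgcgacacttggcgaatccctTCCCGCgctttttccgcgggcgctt
The stretch was 144 bases long at SMC1A and 93 at SMC1B, with 11 and 15 CpG pairs. The guide sequence was not used here, so its place in the first stretch is not given.

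RIBC1, which runs the other way from that stretch, had 9 counts under the control guide and 0 under the SMC1A guide. A count of 0 allows up to 3 counts, so RIBC1 was at least 3.02-fold lower against that limit and 1.98-fold lower at the bound of the exact interval, on counts too few to be called. The nearest gene with 20 counts on that side, HSD17B10, a mitochondrial dehydrogenase gene 8.53 kb from the SMC1A span, was at 103.6 and 80.8 CPM (log2 ratio -0.36, interval -0.46 to -0.26), inside 2-fold. Next on that side was HUWE1, a ubiquitin ligase gene, with a log2 ratio of 0.07, and on the other side IQSEC2 and the histone demethylase gene KDM5C were at -0.03 and -0.09. RIBC2 had 0 counts in both libraries, as SMC1B did.

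SMC3, the other ATPase arm (ENSG00000108055.11, chromosome 10, 110567691 to 110604636, plus strand), had 2712 and 2457 counts. Its level was 154.6 CPM (148.8 to 160.5) under the control guide and 139 CPM (133.9 to 144.9) under the SMC1A guide. The log2 ratio was -0.15 (-0.23 to -0.07), or 0.03 once the trend of ratios with expression level was removed. RAD21, the mitotic kleisin (ENSG00000164754.16, chromosome 8, 116845935 to 116874866, minus strand), had 6135 and 6036 counts, 349.7 CPM (341 to 358.5) and 342 CPM (333.7 to 351). Its log2 ratio was -0.03 (-0.08 to 0.02), 0.10 when scaled by library totals and 0.23 with the trend removed. The intervals of the libraries overlapped for RAD21 and did not for SMC3, and neither partner came near 2-fold. RAD21 counts per SMC3 count were 2.26 (2.16 to 2.37) and 2.46 (2.34 to 2.58).

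The SMC3 count can include reads of its pseudogene SMC3P1, which shared 4.05% of the 100-base words in SMC3 transcripts of GENCODE release 29. SMC3P1 itself had 8 counts under the control guide and 0 under the SMC1A guide. SMC1A, SMC1B, RAD21, STAG1, STAG2 and REC8 shared no 100-base word, the length of a read, with a transcript of another gene. No 31-base word was common to any pair of the 8 genes. With genes outside the 8, however, SMC3 shared 10.5% of its 31-base words, RAD21 5.36%, STAG2 2.01% and STAG3 27.3%.

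STAG1 (ENSG00000118007.13, chromosome 3, 136336233 to 136752403, minus strand) encodes the STAG subunit linked mostly to long-lived cohesin at CTCF sites. It had 797 counts under the control guide and 1926 under the SMC1A guide. The level was 45.4 CPM (42.3 to 48.7) and 109 CPM (104.4 to 114.2), 2.40-fold higher (2.21 to 2.61). The log2 ratio was 1.26, and its whole interval of 1.15 to 1.39 lay past 2-fold. So did that of 3.03% of all genes with at least 100 counts. A log2 ratio at least as high was found in 376 genes, 3.32% of those tested. Among 4029 genes whose mean level was within 2-fold of that of STAG1, 1.71% were at least 2-fold higher, against 5.11% of all genes tested. A level at least 2-fold higher was thus less frequent among these genes than over all genes.

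STAG2 (ENSG00000101972.20, chromosome X, 123960212 to 124422664, plus strand), the more abundant STAG gene in these cells, had 3791 and 4321 counts. Its level was 216 CPM (209.2 to 223.1) under the control guide and 245 CPM (237.7 to 252.4) under the SMC1A guide, 1.13-fold (1.09 to 1.18). The log2 ratio was 0.18 (0.12 to 0.24), inside 2-fold. The 2 genes together were at 261 and 354 CPM, 1.35-fold (1.30 to 1.41). Of the difference of 92.7 CPM, STAG1 made up 63.8 and STAG2 28.9.

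The balance within the pair also differed. STAG1 made up 17.4% of STAG1 and STAG2 counts under the control guide (16.3 to 18.5) and 30.8% under the SMC1A guide (29.7 to 32.0). In counts, there were 0.210 STAG1 for each STAG2 (0.195 to 0.227) and 0.446 (0.422 to 0.470). The genes have nearly the same coding length, 3774 and 3804 bases, and dividing by it moved either share by less than its counting interval. STAG2 stayed the more abundant of the pair in both libraries.

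**Figure D2:**
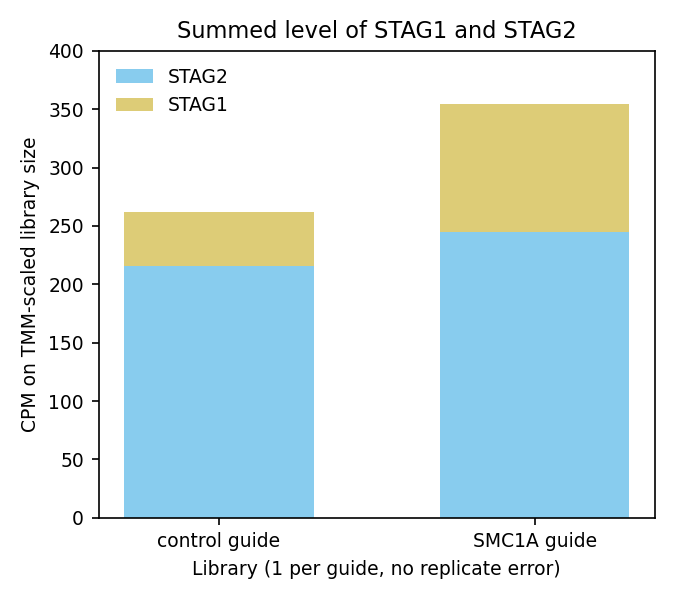
Stacked levels of STAG2 (blue) and STAG1 (yellow) in CPM (y axis) in the library of each guide (x axis), with no error bars because each guide had 1 library. The sum was 261 CPM under the control guide and 354 CPM under the SMC1A guide, and the STAG1 part went from 45.4 to 109 CPM.

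Sequences before a RefSeq start of each of the 3 STAG genes are shown because these paralogs differed in their ratios. They are the 250 bases upstream of the RefSeq start nearest to the GENCODE start (GRCh38.p14), 5′ to 3′ on the strand of the gene, with TCCCGC or its complement GCGGGA in capitals.
STAG1, chr3:136752379-136752628, minus strand: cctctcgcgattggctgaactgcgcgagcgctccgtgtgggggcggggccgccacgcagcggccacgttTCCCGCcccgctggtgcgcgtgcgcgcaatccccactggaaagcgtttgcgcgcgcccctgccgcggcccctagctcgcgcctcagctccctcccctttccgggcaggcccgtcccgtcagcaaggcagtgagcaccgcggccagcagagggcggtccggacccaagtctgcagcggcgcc
STAG2, chrX:123960310-123960559, plus strand: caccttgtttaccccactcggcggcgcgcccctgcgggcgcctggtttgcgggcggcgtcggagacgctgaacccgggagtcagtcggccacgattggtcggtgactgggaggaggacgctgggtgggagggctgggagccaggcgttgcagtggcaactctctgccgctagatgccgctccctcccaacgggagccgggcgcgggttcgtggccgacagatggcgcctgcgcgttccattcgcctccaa
STAG3, chr7:100177474-100177723, plus strand: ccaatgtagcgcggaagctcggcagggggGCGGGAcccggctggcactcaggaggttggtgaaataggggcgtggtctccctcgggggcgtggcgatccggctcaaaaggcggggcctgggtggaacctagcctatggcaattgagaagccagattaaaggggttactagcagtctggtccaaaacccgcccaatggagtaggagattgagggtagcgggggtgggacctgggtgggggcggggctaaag
By the GENCODE spans given here, the STAG2 window lies inside the gene, and the STAG1 and STAG3 windows lie partly inside. RefSeq gave 3 windows for STAG2 and 2 for STAG3, and only the nearest of each is shown. The window held 34 CpG pairs at STAG1, 29 at STAG2 and 14 at STAG3. In the windows shown, TCCCGC stood once at STAG1 and once at STAG3 and was not found at STAG2. Promoter windows were found for 7 of the 8 genes, and only the nearest window of each was counted. TCCCGC was in 4 of these 7 (STAG1, STAG3, SMC1B and REC8), and in 23.4% of 34943 windows of the same length over all genes. CACGTG, the E-box palindrome, was in 0 of 7 and in 6.32% of all windows. CCAAT on either strand was in 4 of 7 (STAG1, STAG2, STAG3 and REC8) and in 32.0% of all windows. The 7 windows held 14 to 34 CpG pairs, against a median of 11 over all windows. A motif match describes the letters only.

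By level and ratio together, the protein-coding genes most like STAG1 were TM7SF3, DDR1, ITM2A and PPP1R18, the 4 nearest of 8113 with at least 500 counts. The measure was the distance in log2 control CPM and log2 ratio over the 2 libraries. Their control levels were 43.9, 49.2, 45.4 and 52.1 CPM and their log2 ratios 1.11, 1.39, 1.06 and 1.11.

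STAG3 (ENSG00000066923.19, chromosome 7, 100177563 to 100221488, plus strand), the meiotic STAG gene, had 22 counts under the control guide and 54 under the SMC1A guide. Its level was 1.25 CPM (0.786 to 1.90) and 3.06 CPM (2.30 to 3.99). The intervals did not overlap, and the fold was 2.44 (1.46 to 4.21), with a log2 ratio of 1.25 (0.55 to 2.07) whose interval reached to both sides of 2-fold. STAG3 made up 0.477% of the counts of the 3 STAG genes under the control guide (0.299 to 0.722) and 0.857% under the SMC1A guide (0.644 to 1.12). The level of STAG3 was thus a small part of all STAG RNA in both libraries.

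STAG3 has partial copies on chromosome 7, and its own transcripts shared 15.3% of their 100-base words with other genes, most of them with PVRIG, which overlaps its end and had 0 counts in both libraries. The division of reads between STAG3 and these genes is therefore uncertain. The copy STAG3L3 (chromosome 7, 72969696 to 73005922) had 0 counts under the control guide and 44 under the SMC1A guide. It was at least 14.6-fold higher over the limit of 3 counts per library and 11.4-fold higher at the bound of the exact interval. These counts are too few to be called. STAG3L2 had 3 and 7 counts, a ratio of 2.32 (0.530 to 13.9), and STAG3L1 had 0 in both. Newer rows for STAG3L4 (302 and 343 counts) and STAG3L5P (221 and 239) had log2 ratios of 0.18 and 0.10, and the older rows of the same names had at most 1 count. The readthrough gene STAG3L5P-PVRIG2P-PILRB was at 21.2 and 27.8 CPM (log2 ratio 0.39, 0.19 to 0.59). STAG3 summed with its STAG3L copies had 548 and 688 counts, a log2 ratio of 0.32 (0.16 to 0.49) in place of 1.25. The ratio was thus smaller over the family than for the rows of STAG3 and STAG3L3.

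SMC1B (ENSG00000077935.17, chromosome 22, 45344063 to 45413619, minus strand), the meiotic paralog of SMC1A, had 0 counts in both libraries. A count of 0 allows up to 0.171 CPM under the control guide and 0.170 CPM under the SMC1A guide. Of the 288 SMC1A and SMC1B counts under the SMC1A guide, 0 were SMC1B, which allows a share of up to 1.04% by the limit of 3 counts and 1.27% by the exact interval. At this depth no SMC1B RNA was detectable in either library, and no ratio can be given.

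REC8 (ENSG00000100918.14, chromosome 14, 24171853 to 24180257, plus strand), the meiotic kleisin, had 16 and 20 counts, 0.912 CPM (0.521 to 1.48) and 1.13 CPM (0.693 to 1.75). The intervals overlapped, and the log2 ratio of 0.30 had an interval from -0.71 to 1.36 and became -0.017 with the trend of ratios with level removed. It was 0.260% of RAD21 and REC8 counts under the control guide (0.149 to 0.422) and 0.330% under the SMC1A guide (0.202 to 0.510). RAD21L1, the other germline kleisin, had 8 and 16 counts (log2 ratio 0.91, -0.32 to 2.42). A difference in either germline kleisin was not detectable at these counts, and RAD21 made up nearly all kleisin counts in both libraries.

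Per kilobase of coding length, the control levels in CPM ran from RAD21 at 185 through SMC1A at 124.5, STAG2 at 56.8 and SMC3 at 42.3 to STAG1 at 12.04. Under the SMC1A guide the order was RAD21 at 181, STAG2 at 64.4, SMC3 at 38.2, STAG1 at 28.9 and SMC1A at 4.41. Per kilobase of merged exons, SMC3 stood above STAG2 under the control guide (37.6 and 32.6) and below it under the SMC1A guide (33.9 and 36.9). By that length RAD21 was at 63.1 and SMC1A at 46.4 under the control guide, much closer to SMC3 than by coding length. The order of SMC3 and STAG2 and the gaps between genes thus depend on the length used. REC8, at 0.556 and 0.691 per coding kilobase, and STAG3, at 0.341 and 0.832, lay below all 5 mitotic genes. SMC1A moved from the second place to the last of the mitotic genes.

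**Figure D3:**
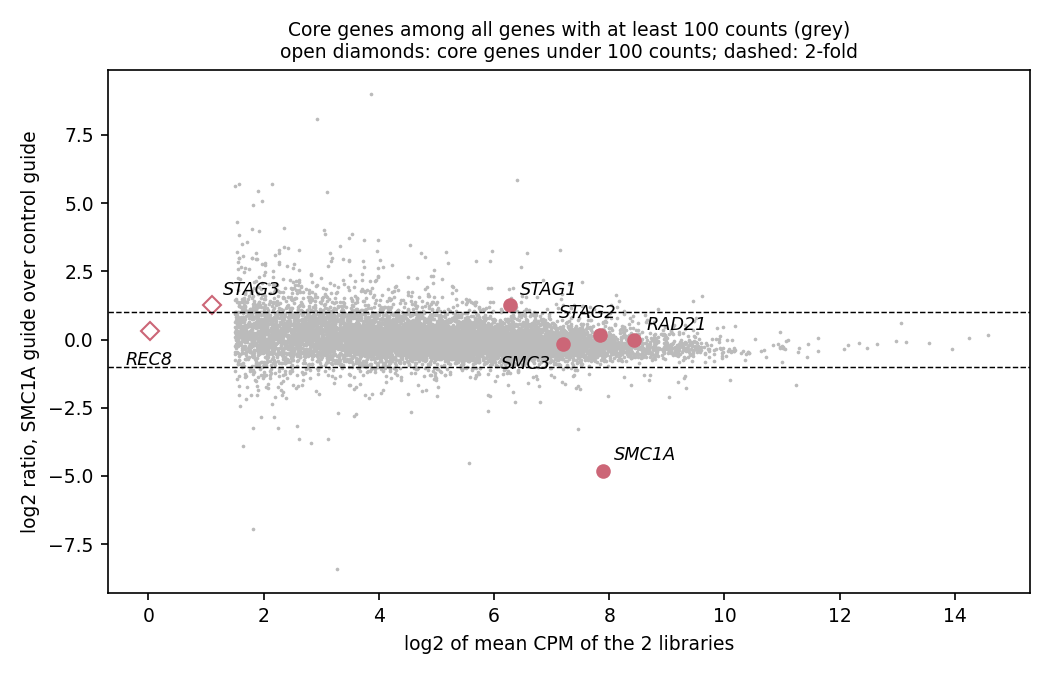
Log2 ratio, SMC1A guide over control guide (y axis), against the log2 of the mean CPM of the libraries (x axis) for the 11321 genes with at least 100 counts (grey) and the core genes with any count (red, open diamonds under 100 counts). SMC1A stands at -4.81 and STAG1 at 1.26, past the dashed 2-fold lines, while SMC3, RAD21 and STAG2 lie between them.

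Genes that load, release, modify or protect cohesin were measured on at least 100 counts for 19 of the 20 listed, and all 19 were within 1.5-fold of their control level, against 78.8% of all genes tested. Each of the 19 had at least 780 counts, while the 78.8% covers all genes from 100 counts up. None passed 2-fold in either direction (0 and 0), against 5.11% upward and 2.32% downward of all genes. Among genes with at least 500 counts these shares were 2.36% and 1.66%. The median log2 ratio of the 19 was 0.01, from -0.53 to 0.40, beside -0.05 over all genes tested. The highest were PDS5B (48.7 and 64.2 CPM, 0.40), which can both release cohesin and help to keep it on chromatin, PTTG1 (41.3 and 54.0 CPM, 0.39), which encodes securin, and the loader NIPBL (159 and 208 CPM, 0.38). Of the other proteins that protect cohesin at centromeres or cleave it, SGO2 was at 0.29, SGO1 at 0.02 and the separase gene ESPL1 at 0.19. The lowest were the mitotic kinase gene BUB1 (284 and 197 CPM, -0.53), CDCA5 (142 and 107 CPM, -0.41), which encodes sororin, and the acetyltransferase gene NAA50 (286 and 218 CPM, -0.39).

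The paralogs PDS5A and PDS5B differed in direction. PDS5A was at 269 CPM under the control guide and 219 under the SMC1A guide (log2 ratio -0.30), and PDS5B was at 0.40 on the same scale, both inside 2-fold. Over the alternative scalings and prior counts PDS5A ranged from -0.31 to -0.095 and PDS5B from 0.38 to 0.53. Between these ends lay PLK1 at -0.25, the SMC3 acetyltransferase gene ESCO2 at -0.22, the release factor WAPL at -0.17, CTCF at -0.08, ESCO1 at 0.01, AURKB at 0.02, the SMC3 deacetylase gene HDAC8 at 0.07 and MAU2 at 0.14. PTTG2 had 0 counts in both libraries. The sign depended on the scaling for CTCF (0.050 by library totals) and ESCO1 (-0.0059 without mitochondrial and globin genes in the TMM).

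**Figure D4:**
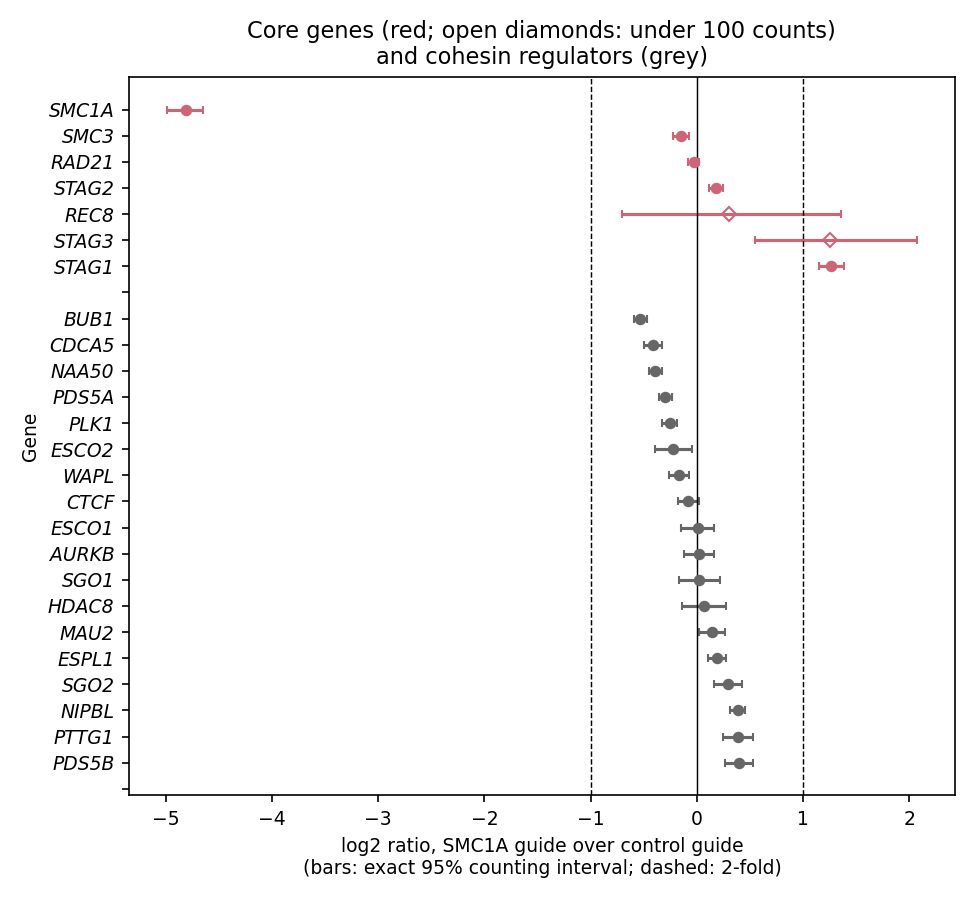
Log2 ratio, SMC1A guide over control guide (x axis), with exact 95% counting intervals for the 7 core genes with any count (red) and 18 of the 19 cohesin regulators with at least 100 counts (grey). The regulators span -0.53 to 0.40, inside the dashed 2-fold lines, whereas SMC1A (-4.81) and STAG1 (1.26) lie outside them.

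Of 35 other genes of meiosis, the setting in which SMC1B, REC8 and STAG3 work, 16 had 0 counts in both libraries and 8 reached 20 counts. Among the 6 with 100 counts, 0 were past 2-fold upward and 0 downward, against 5.11% and 2.32% of all genes. The highest of the 8 were RAD21L1 (above), MSH5, which encodes a meiotic mismatch repair homolog (36.4 and 58.4 CPM, log2 ratio 0.68), and SYCE1, of the synaptonemal complex (7.41 and 11.9 CPM, 0.68). The lowest were MEIOB (95.5 and 56.5 CPM, -0.76), TEX15 (45.5 and 33.7 CPM, -0.43) and PRDM9 (27 and 24 counts, -0.17). The median of the 8 was 0.25, beside -0.01 over all genes with at least 20 counts. Meiotic genes with counts thus lay on both sides of their control level.

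The genes beside and overlapping each core gene were compared with it. Some of these genes overlap one another on the same strand, such as PILRB and the readthrough gene beside STAG3, and were counted separately. Of 29 with at least 100 counts, 3 were past 2-fold upward and 0 downward, against 5.11% and 2.32% of all genes, and their median log2 ratio was 0.07. The 3 were DUSP5 beside SMC3 (3.48 and 7.77 CPM, 1.15), SMARCA1 beside STAG2 (5.76 and 20.1 CPM, 1.79) and GAL3ST4 beside STAG3 (2.34 and 8.85 CPM, 1.89). The count of 3 became 4 with DESeq2 size factors, library totals or the upper quartile, where TRPS1 beside RAD21 passed, and 2 with the trend removed, where DUSP5 was at 0.94. SMARCA1 is the nearest gene with 20 counts on its side of STAG2 but lies 5024 kb away. The others at STAG2 were the caspase inhibitor gene XIAP at -0.0049, THOC2, of mRNA export, at -0.18, the phosphatase gene OCRL at -0.29 and the overlapping TENM1 at 0.86. At SMC3, SMNDC1 was at -0.27, RBM20 at 0.58 and PDCD4-AS1 at 0.20.

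At RAD21, the translation factor gene EIF3H was at 438.4 and 366.5 CPM (-0.26), and the overlapping UTP23 was at -0.13. TRPS1, which encodes a GATA-type repressor and lies 1036 kb away, had 75 and 151 counts (fold 2.003, but log2 ratio 0.99, 0.59 to 1.421, with the prior count that all calls used). MED30, of Mediator, was at 0.26 and EXT1, of heparan sulfate synthesis, at 0.54. The log2 ratios of these neighbours lay on both sides of that of RAD21.

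At STAG1, the overlapping gene PCCB, of propionyl-CoA breakdown, was at 88.7 and 86.5 CPM (-0.04), and MSL2, of a histone acetyltransferase complex, at 35.3 and 29.3 CPM (-0.27). On the side of the STAG1 start, SLC35G2 had 19 and 42 counts (log2 ratio 1.097, 0.32 to 2.00) and an antisense RNA (ENSG00000273486) 11 and 27 (1.22, 0.23 to 2.45), each too few to be called. STAG1-DT, transcribed away from the STAG1 start at a distance of 0.227 kb, had 2 and 4 counts. PPP2R3A, a phosphatase subunit gene, had 16 and 10.

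At STAG3, GPC2, whose start lies 0.191 kb from that of STAG3 on the other strand, was at 2.79 and 3.91 CPM (0.48, -0.06 to 1.05). CASTOR3P, which overlaps STAG3 on the other strand, had 20 counts under the control guide and 0 under the SMC1A guide. It was at least 6.70-fold lower against the limit of 3 counts and 4.96-fold lower at the bound of the exact interval. These counts are too few to be called. PILRB was at -0.07. At REC8, the interferon factor gene IRF9 was at 5.02 and 8.73 CPM (0.79, 0.41 to 1.19) and the importin gene IPO4 at 134.6 and 85.2 CPM (-0.66, -0.75 to -0.57), in opposite directions. The others at REC8 were TM9SF1 at 0.27, ENSG00000259529 at 0.83 and ENSG00000259522 at -0.74. On the same strand, ENSG00000259529 spans IRF9, and ENSG00000259522 overlaps IPO4 and TM9SF1, so these are not separate loci. At SMC1B, FAM118A was at 67.0 and 89.0 CPM (0.41), KIAA0930 at 0.13, ATXN10 at -0.07 and ENSG00000280383 at -0.70.

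**Figure D5:**
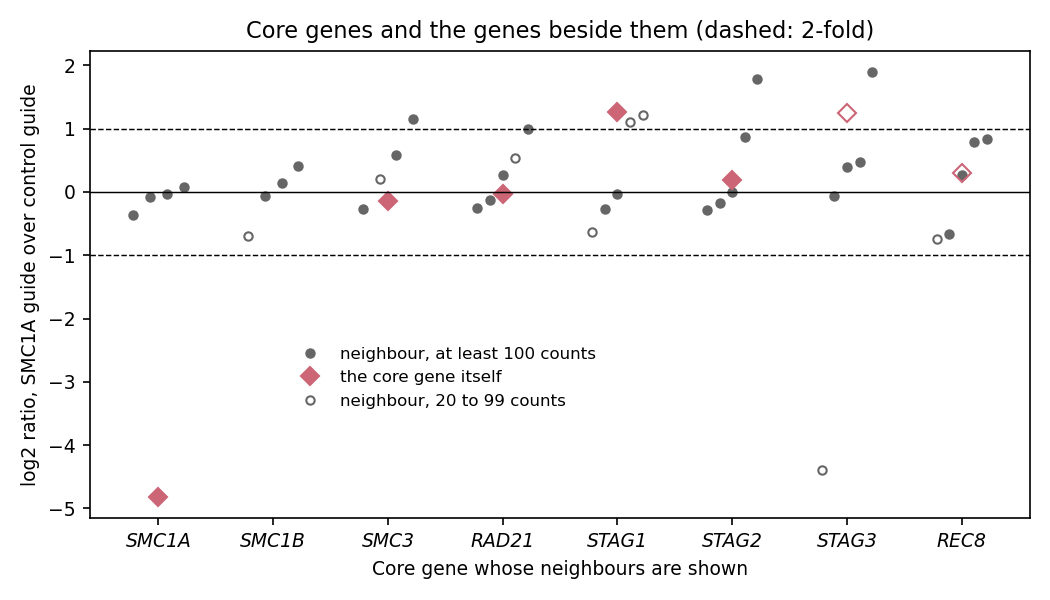
Log2 ratio, SMC1A guide over control guide (y axis), of each core gene with any count (red diamonds, open under 100 counts) and of the genes beside or overlapping it with at least 20 counts (grey, open under 100 counts), grouped by core gene (x axis). The neighbours of SMC1A lie between -0.36 and 0.07 while SMC1A is at -4.81, and the open point at the bottom, CASTOR3P with 0 counts for the SMC1A guide, has a ratio that depends on the prior count.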

How the data were processed

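Poly(A)-selected RNA, 1 µg per library, was sequenced as read pairs of 100 bases from a strand-preserving kit, per the labels' protocols. The authors deposited estimated counts per gene, named as merged Salmon gene counts, rounded to whole numbers and not scaled between libraries. Per the submitters' processing notes, Salmon 1.10.1, STAR 2.7.10a and DESeq2 1.42.1 were used with GRCh38. The annotation is not given in the sources used here. All 62700 Ensembl rows had an entry in the gene-name table, and 2 reporter rows stayed in the totals. Spans and lengths are from GENCODE release 29, which is not the annotation of the table.

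Library sizes were scaled by TMM (edgeR 4.0.16, R 4.3.3), and log2 ratios used edgeR's formula with a prior count of 1. Ratio and share intervals were exact (Clopper-Pearson) and level intervals exact Poisson (Python 3.11.15, scipy 1.17.1). Intervals and the limit of 3 counts cover counting error only, since reads that carry no molecular identifier may be copies of 1 molecule. With 1 library per guide no test across samples was possible. The steps were tested on simulated data.

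The named genes were the 8 core genes, RAD21L1, the STAG3 copies, the cohesin regulators with 100 counts, the 3 highest and 3 lowest meiotic genes with 20 counts, the 2 highest and 2 lowest condensin and SMC5/6 genes, the 2 nearest genes with 20 counts on each side of a core gene, and the 4 genes most like STAG1. Genes overlapping a core gene, SMC3P1 and PVRIG were added after their values were seen. Of the regulators, 1 is counted in its list but not reported here. The members and lists were chosen with earlier results of these data known. Other scalings (among them size factors from DESeq2 1.42.0), prior counts, count minimums, gene copies and gene lengths were tried.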

Additional observations from a re-analysis of the deposited data

How the results depend on the processing

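No paired analysis was possible because each guide had 1 library, and no library could be left out. SMC1A stayed past 2-fold lower and STAG1 past 2-fold higher under all 7 settings of scaling, centring and prior count. Scaling by library totals shifted the median of all tested genes by 0.13 and put SMC3 at -0.021, RAD21 at 0.10, STAG1 at 1.39 and STAG2 at 0.31. Removing the trend with expression level put the SMC1A level left at 4.09%, SMC3 at 0.031, RAD21 at 0.23 and STAG2 at 0.38. STAG3 summed with its copies was at 0.32. The median of the cohesin regulators was 0.014 with DESeq2 size factors, 0.14 by library totals, 0.024 by upper quartile, -0.0059 with TMM without mitochondrial and globin genes, and 0.036 with the trend removed. Genes past 2-fold numbered 579 higher and 263 lower. A minimum of 20 counts gave 1361 and 518, of 500 counts 199 and 140, and of 1 count 3800 and 2714. Requiring the entire interval beyond 2-fold gave 343 and 143. The share of higher genes among those past 2-fold was 68.8%. That share ran from 58.3% with a minimum of 1 count to 79.7% by library totals (766 and 195). With the trend removed it was 62.7% (526 and 313). The STAG1 share by merged exon length, added after seeing the data, was 17.5% and 30.99%. Counting depth limits STAG3, REC8 and SMC1B.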

Other observations

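Genes of condensin and the SMC5/6 complex, ring complexes related to cohesin, were within 1.5-fold in 15 of the 16 with 100 counts. Of these 16, 0 were past 2-fold in either direction, against 5.11% higher and 2.32% lower over all genes tested. Among genes with at least 500 counts these shares were 2.36% and 1.66%. The median log2 ratio of the 16 was -0.10, beside -0.05 over all genes. The highest were SLF2, an SMC5/6 recruiting factor (35.7 and 48.6 CPM, log2 ratio 0.44), and the condensin gene SMC4 (286 and 323 CPM, 0.18). The lowest were the SMC5/6 genes NSMCE1 (38.4 and 25.4 CPM, -0.59) and NSMCE4A (29.3 and 21.4 CPM, -0.45).

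The antisense RNAs named for RAD21 and STAG2 were at or near 0 in both libraries. RAD21-AS1 had 0 and 3 counts and STAG2-AS1 0 and 4, and the pseudogene RAD21P1 had 0 in both. These loci were singled out after their counts were seen.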
